A study of Mus musculus with 3 samples.

Results

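The 10 genes described here encode blood clotting proteins that the yolk sac endoderm, and later the liver, releases into the plasma: the fibrinogen chains Fga, Fgb and Fgg, the protease zymogens F2, F7, F10 and Proc, the cofactor F5, the inhibitor Serpinc1 and the fibrin-digesting zymogen Plg. They were found by matching the accession of each array probe to a gene name, which gave 13 of the 39429 probes measured, each of them a single spot on every array. All 10 genes had at least 1 probe bright enough to be tested, 12 of the 13 probes in all, among 19814 genes tested. The arrays compared day 8 cultures of 2 genotypes. Hopx-/- cultures, called null, lacked both working copies of Hopx, a gene for a small homeodomain protein, and Hopx+/- cultures, called heterozygous, kept 1 copy. Both kinds of culture were embryoid bodies, aggregates that embryonic stem cells form in hanging drops and in which derivatives of several germ layers arise together. The stem cells came from blastocysts, were first grown on STO feeder cells and later on inactivated mouse embryonic fibroblasts, and both genotypes were put into the same cardiac medium with FGF10 (12.5 ng/ml), bFGF (10 ng/ml), VEGF (5 ng/ml), ascorbic acid (1 mM) and Glutamax (2 mM). No culture with both copies of Hopx was compared, and the labels do not say how many stem cell lines stood for each genotype, so that line and genotype cannot be told apart and p-values measure only the spread between these samples.

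Clotting runs as a cascade of proteases. Tissue factor (F3) and activated F7 activate F10, which with its cofactor F5 turns prothrombin (F2) into thrombin, and thrombin cuts fibrinogen into fibrin. Antithrombin (Serpinc1) and activated protein C (Proc) restrain the cascade, and plasmin, made from plasminogen (Plg), dissolves fibrin. In the mouse embryo the visceral endoderm of the yolk sac makes many plasma proteins before the liver forms.

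RNA of the 2 genotypes was hybridised together on 3 two-colour Agilent arrays, and each ratio comes from 1 array. Depending on the channel, 61.9% to 72.9% of 43020 non-control spots cleared the background. Precision is limited by having 3 arrays. The labels give the red dye to the null culture on all arrays, but as labelled the ratios of replicate 3 ran against those of replicates 1 and 2 (r = -0.87 across probes with each of them, against 0.92 between replicates 1 and 2). In the authors' deposited table replicate 3 runs opposite to its scanner ratios, and its sign was turned here to follow that table, a choice that the labels do not settle. All signed values are therefore log2 null over heterozygous with replicate 3 turned. Without replicate 3, 7 of the 10 genes were called lower and 2 higher, as with it. Of all genes, 30.3% were then called lower and 29.6% higher. With replicate 3 as labelled, 0 of the 10 and 0 of all genes were called by limma. With replicate 3 turned, Hopx itself was lower on every array and fell by 3.13 on the log2 scale (SE 0.11, adjusted p = 2.8e-07 by limma, n = 3). Its ratios were -2.98, -2.97 and -3.45, and as labelled that of replicate 3 would have the opposite sign, with Hopx higher in null cultures.

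In null cultures 7 of the 10 coagulation genes fell, F10 and F5 rose by less than 2-fold, and F7 did not pass the test. F2, Fgb and Proc fell most, by 5.95-fold, 5.79-fold and 4.57-fold, and Fgg and Plg fell by 2.70-fold and 2.41-fold. Serpinc1 and Fga fell by 1.37-fold and 1.24-fold. Fga was bright enough to be tested only through the heterozygous channel. With both channels required to clear the background, 6 of 9 fell and 2 rose, against 30.9% and 29.8% of all genes. Calls were made at adjusted p under 0.05 with limma, the adjustment running over all probes kept. They have to be read against the background: 60.3% of all genes tested were called, 30.1% lower and 30.2% higher. At least 2-fold lower were 5 of the 10, against 6.03% of all genes, and at least 2-fold higher were 0 of the 10, against 4.87%. The median of the 10 ratios was -0.86, and that of all genes 0.0034. The former was -1.38 with processed signals, -1.30 with no offset added to the background-corrected signals and -0.58 in the authors' deposited table. The genes were picked with earlier results of these arrays known, so the counts are descriptions. In such mixed cultures fewer cells of a type and less RNA per cell cannot be told apart.

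**Figure D1:**
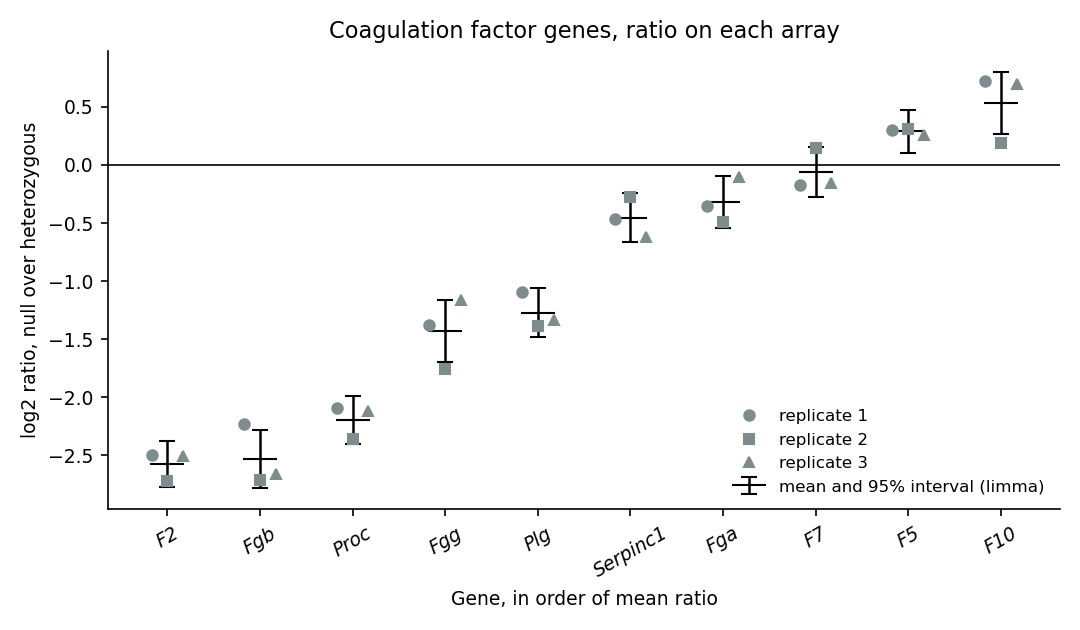
Log2 ratio of null over heterozygous (vertical axis) for each coagulation gene (horizontal axis, in order of the mean). Grey symbols are the 3 arrays, bars the mean and its 95% interval from limma; F2, Fgb and Proc lie below -2 on every array, while F5 and F10 lie above 0 on every array.

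The fibrinogen genes lie side by side on chromosome 3, and F7 and F10 side by side on chromosome 8. Because these neighbours are compared with each other, the 250 bases before the start of these 5 genes are shown, from RefSeq on build GRCm38.p6. They cover chr3:83007474-83007723 for Fgg and chr3:83025903-83026152 for Fga (both plus strand), chr3:83049864-83050113 for Fgb (minus strand), chr8:13025784-13026033 for F7 and chr8:13037058-13037307 for F10 (both plus strand). Each is written 5′ to 3′ in the direction of its gene. Capitals mark AGGTCA or its reverse complement TGACCT, one arm of the site of nuclear receptors, the family to which Hnf4a belongs. Fgb and Fga hold neither and are shown in lower case throughout.
Fgb: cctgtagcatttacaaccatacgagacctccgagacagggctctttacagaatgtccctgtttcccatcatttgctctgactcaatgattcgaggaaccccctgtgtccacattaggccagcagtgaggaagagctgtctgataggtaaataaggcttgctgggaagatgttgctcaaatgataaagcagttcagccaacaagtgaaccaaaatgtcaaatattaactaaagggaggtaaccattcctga
Fga: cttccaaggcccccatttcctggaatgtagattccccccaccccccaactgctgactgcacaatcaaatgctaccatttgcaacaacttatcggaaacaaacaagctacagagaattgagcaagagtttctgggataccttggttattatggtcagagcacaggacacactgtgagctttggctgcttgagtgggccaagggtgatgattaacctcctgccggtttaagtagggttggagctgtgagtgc
Fgg: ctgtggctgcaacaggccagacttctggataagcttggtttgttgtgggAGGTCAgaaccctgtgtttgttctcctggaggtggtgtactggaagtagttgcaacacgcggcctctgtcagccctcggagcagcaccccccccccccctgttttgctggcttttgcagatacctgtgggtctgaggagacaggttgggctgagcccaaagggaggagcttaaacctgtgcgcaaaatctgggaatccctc
F7: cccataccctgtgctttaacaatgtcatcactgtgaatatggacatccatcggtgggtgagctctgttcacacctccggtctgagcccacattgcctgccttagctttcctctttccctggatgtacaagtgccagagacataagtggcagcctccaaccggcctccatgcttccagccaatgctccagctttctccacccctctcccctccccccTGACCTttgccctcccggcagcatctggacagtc
F10: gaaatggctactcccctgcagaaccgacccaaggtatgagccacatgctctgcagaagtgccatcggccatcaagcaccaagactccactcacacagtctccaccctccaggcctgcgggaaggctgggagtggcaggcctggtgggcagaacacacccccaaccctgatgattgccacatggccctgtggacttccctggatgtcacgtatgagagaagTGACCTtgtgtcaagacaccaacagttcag

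The promoter table held 8 of the 10 genes, all but Proc and Plg. Searched on both strands, AGGTCA was found in 5 of the 8 and in 14.0% of all 32851 promoters of the table. It was picked after these promoters had been seen, so the count describes them and tests nothing. Counted from the gene's start, it began at -30 in F10, -34 in F7, -33 in F2, -57 in F5 and -201 in Fgg. The Hnf4 core CAAAGTCCA, the palindrome TTGCGCAA of C/EBP factors, the GATA core AGATAA and the TATA box TATAAA were in none of the 8, and in 0.384%, 0.164%, 9.99% and 12.4% of all promoters. A match describes letters only. The search took exact letters, so a motif that was not found does not show that a site of its factor is absent. Genes that fell and genes that rose both held AGGTCA: F2 and Fgg fell, F10 and F5 rose.

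Fibrinogen is built from pairs of 3 chains, and the 3 genes were all called lower. Fgb, the beta chain, had normalized log2 signals of 11.92, 11.75 and 12.02 in heterozygous and 9.69, 9.04 and 9.36 in null cultures (replicates 1, 2 and 3). The groups did not overlap. Its log2 ratios were -2.23, -2.71 and -2.66, a mean of -2.53 (SE 0.11, adjusted p = 6.9e-07 by limma). Fgg, the gamma chain, had signals of 9.14, 9.03 and 8.99 in heterozygous and 7.76, 7.27 and 7.83 in null cultures, again without overlap. Its ratios of -1.38, -1.76 and -1.16 gave a mean of -1.43 (SE 0.12, adjusted p = 1.6e-05 by limma), a call lost with an ordinary t statistic (adjusted p = 0.057).

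Fga, the alpha chain, was dim, and its change was small. Its brighter probe read 6.63, 6.70 and 6.58 in heterozygous and 6.27, 6.21 and 6.48 in null cultures, with ratios of -0.35, -0.49 and -0.10 and a mean of -0.32 (SE 0.10, adjusted p = 0.022 by limma). The other probe gave -0.33, -0.43 and -0.35 (mean -0.37, SE 0.08, adjusted p = 0.0042 by limma). In the null channel these probes were well above background on 2 and on 1 of the 3 arrays, while both were above it on all 3 in the heterozygous channel. For the brighter probe, only 9.28% of the kept probes were as dim or dimmer. Fga lost its call without replicate 1 (adjusted p = 0.085 by limma) and without replicate 2 (0.162), and with the scanner software's processed signals its ratio was -1.04.

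Within each array Fga stood above Fgb by 2.22 ± 0.34 (SD, n = 3) and above Fgg by 1.12 ± 0.13 in log2 ratio, and Fgg stood above Fgb by 0.85, 0.96 and 1.49 on the 3 arrays. These differences kept their sign on every array. With 3 arrays the exact sign-flip permutation test (two-sided) cannot go below p = 0.25, the value each of these pairs reached. With processed signals, the ratios of Fga, Fgg and Fgb were -1.04, -1.72 and -2.67, and the 2 differences of Fga were 1.63 and 0.69. The null signal of Fga was close to background, so its ratio, and with it the distance to the other chains, is not well measured.

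The genes next to the fibrinogen cluster did not pass the test. Rbm46 stood at -0.19 (SE 0.09, adjusted p = 0.083 by limma) and Plrg1 at 0.17 (SE 0.09, adjusted p = 0.119). Npy2r and Lrat were too dim to test, and no probe was matched to Gm10710 or Dchs2. Around F7 and F10, Tubgcp3 rose by 0.72 (SE 0.08), Cul4a by 0.48 (SE 0.11), Pcid2 by 0.40 (SE 0.09) and Mcf2l by 0.26 (SE 0.09), Atp11a stood at -0.03 (SE 0.08), and Proz was too dim to test. The rise of F10, at 0.54, lay within the range of these neighbours.

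**Figure D2:**
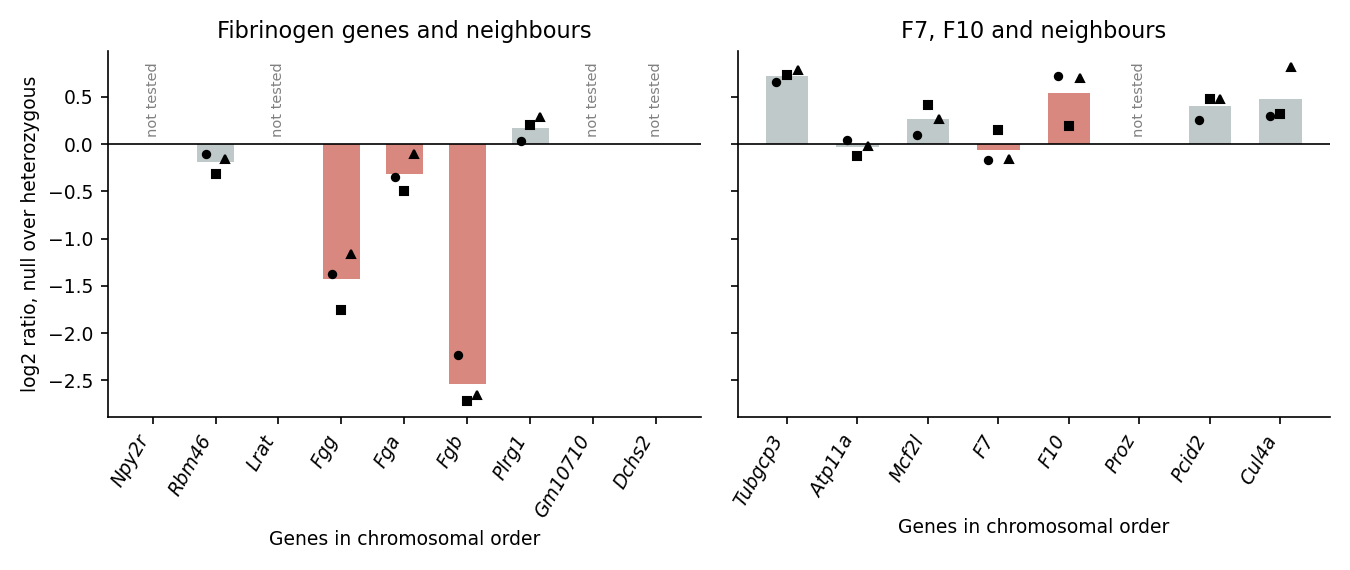
Log2 ratio of null over heterozygous for the fibrinogen genes (left) and for F7 and F10 (right) with 3 protein-coding neighbours on each side, in chromosomal order and not to scale. Bars are means (red for coagulation genes, grey for neighbours) and symbols the 3 arrays. Fgg and Fgb stand at -1.43 and -2.53 between neighbours at -0.19 and 0.17.

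F2, F7, F10 and Proc belong to one family of vitamin K-dependent proteases, whose glutamates are carboxylated before secretion. They split in the null cultures. F2, prothrombin, had signals of 10.27, 10.04 and 10.11 in heterozygous and 7.77, 7.32 and 7.61 in null cultures, with ratios of -2.50, -2.72 and -2.51 (mean -2.57, SE 0.09, adjusted p = 2.4e-07 by limma). Only 85 of the 19814 genes had a ratio as low or lower. Proc, protein C, which once activated destroys activated F5, read 10.14, 10.07 and 9.90 in heterozygous and 8.05, 7.71 and 7.78 in null cultures. Its ratios were -2.09, -2.36 and -2.12 (mean -2.19, SE 0.09, adjusted p = 5.7e-07 by limma). For both genes the groups lay far apart, with every null value more than 1 log2 unit under every heterozygous value.

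F10, the protease that activates prothrombin, was higher in null cultures on each array, with ratios of 0.72, 0.19 and 0.70 (mean 0.54, SE 0.12, adjusted p = 0.0039 by limma). Its signals were 9.27, 9.08 and 8.92 in heterozygous and 10.00, 9.27 and 9.62 in null cultures. The lowest null value touched the highest heterozygous value, so the groups overlapped although each array gave a rise. The call was lost with an ordinary t statistic (adjusted p = 0.154) and with the channels taken as separate samples (adjusted p = 0.062). F7, which starts the cascade together with tissue factor, had signals of 6.61, 6.47 and 6.49 in heterozygous and 6.44, 6.61 and 6.33 in null cultures, and ratios of -0.17, 0.15 and -0.15. The mean of -0.06 (SE 0.09, 95% interval -0.28 to 0.16, adjusted p = 0.614 by limma) did not pass, and its sign differed between arrays. Its second probe was not well above background in any channel. F7 was dim as well, with 9.39% of kept probes as dim or dimmer, so the missed threshold says little about it. The offset added to the signals pulls ratios of dim spots toward 0, so the interval does not bound its change either. The SE of F7 was 0.22 with processed signals and 0.16 with no offset. The difference of F10 over F7 was 0.60 ± 0.48 (SD, n = 3; exact sign-flip permutation p = 0.25, the smallest possible).

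F5, the cofactor of activated F10, gave different results with its 2 probes. The brighter one read 6.47, 6.74 and 6.75 in heterozygous and 6.77, 7.05 and 7.01 in null cultures. Its ratios of 0.30, 0.31 and 0.26 were close to each other (mean 0.29, SE 0.08, adjusted p = 0.014 by limma), and the groups did not overlap. The other gave -0.05, 0.09 and 0.01 (mean 0.02, SE 0.08, adjusted p = 0.865). The mean of both, at 0.15, did not pass (adjusted p = 0.118 by limma). The call of the brighter probe was also lost without replicate 1 (adjusted p = 0.068) and without replicate 2 (0.077), and F5 stood at 0.13 in the authors' deposited table (adjusted p = 0.441).

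Serpinc1, antithrombin, is the main plasma inhibitor of thrombin and activated F10. It read 6.84, 6.72 and 7.07 in heterozygous and 6.38, 6.45 and 6.46 in null cultures, with ratios of -0.46, -0.28 and -0.62 (mean -0.45, SE 0.09, adjusted p = 0.0030 by limma). The groups did not overlap, but the probe was dim, and the size of the fall depended on the processing: -0.94 with processed signals, -0.89 with no offset added to the background-corrected signals, and -0.078 in the authors' deposited table, where it lost its call (adjusted p = 0.603).

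Plg, plasminogen, read 7.62, 7.81 and 7.55 in heterozygous and 6.53, 6.43 and 6.21 in null cultures, with no overlap. Its ratios were -1.09, -1.38 and -1.34 (mean -1.27, SE 0.09, adjusted p = 8.2e-06 by limma). The fall was called in every setting except with replicate 3 as labelled, but its size moved from -0.84 in the authors' table to -2.88 with processed signals. Null signals of Plg were well above background on all 3 arrays but nearly as dim as those of Fga, so the size of its fall is not well measured.

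In all, null and heterozygous signals did not overlap for 7 genes that fell and for F5, against 26.3% of all genes with null lower and 26.3% with null higher. Fga, among these 7, was tested through the heterozygous channel only. In the order of ratios, 5 of the 45 pairs of genes changed sign between arrays: F2 and Fgb, Fgg and Plg, Serpinc1 and Fga, Fga and F7, and F5 and F10. The other 40 pairs kept their order on all 3 arrays.

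**Figure D3:**
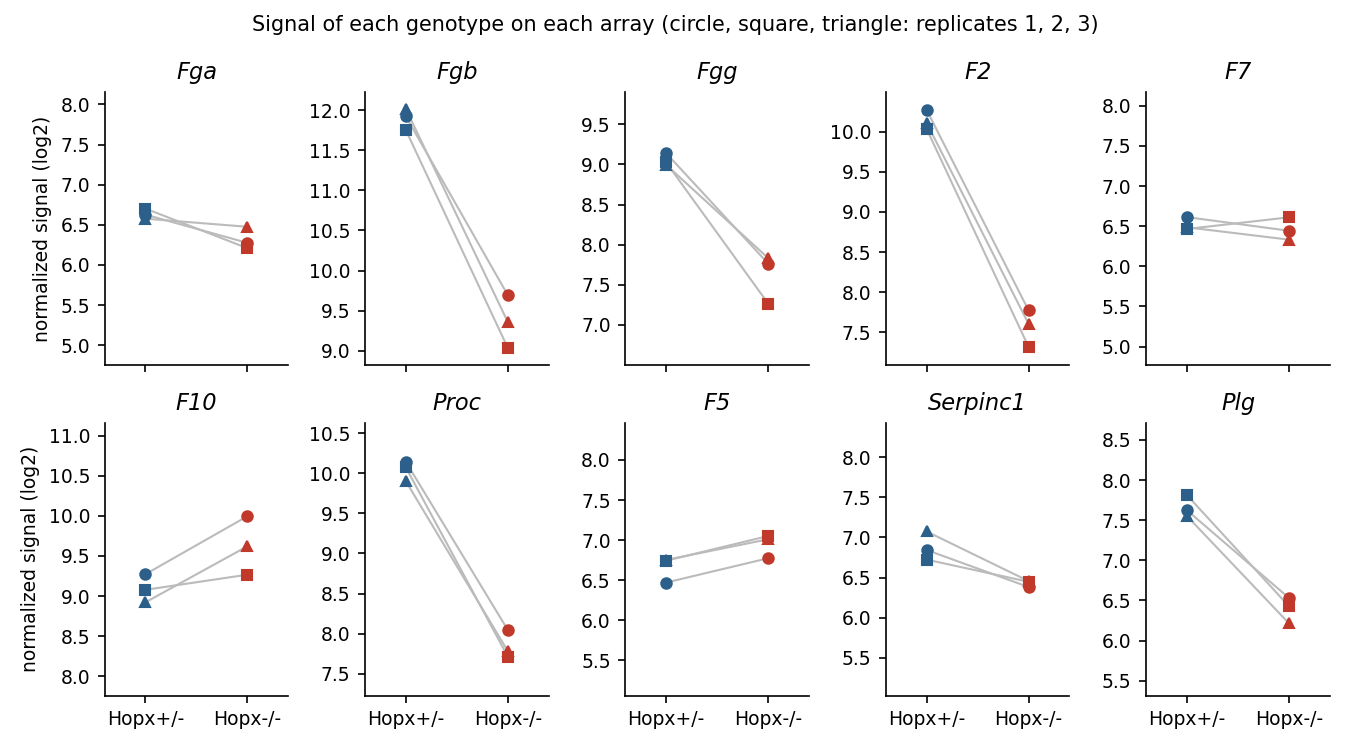
Normalized log2 signal (vertical axis, own position but equal span of 3.4 log2 units in each panel) of each coagulation gene in heterozygous (blue) and null (red) cultures, with lines joining the channels of an array. Lines for F2, Fgb and Proc drop by more than 2 units, F7 is flat within its spread, and F10 and F5 slope upward.

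Other genes of clotting mostly fell or did not pass. Of 16 further clotting factors and helpers, 10 were tested, of which 7 fell and 1 rose, with a median of -0.40. When the arrays were only median-centred, with no loess, 3 of the 10 fell and the median was -0.06; that setting put the median of all genes at 0.23. F3, tissue factor, fell by 1.97 (SE 0.10) and Gas6, a ligand related to protein S, fell by 0.95 (SE 0.09). F13a1, the subunit that crosslinks fibrin, rose by 1.15 (SE 0.13) but cleared the background in heterozygous cultures on only 1 of 3 arrays. It was tested through the null channel only, and with both channels required 7 of 9 fell and 0 rose. F9 and F8, the protease and cofactor affected in haemophilia, stood at -0.18 (SE 0.12) and 0.02 (SE 0.09) and did not pass.

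Of 7 other inhibitors and receptors of protein C tested, 5 fell and 0 rose (median -0.52, or -1.09 with processed signals). One of the 5, Serpind1, cleared the background in null cultures on 1 of 3 arrays, and with both channels required to clear it 4 of 6 fell. Serpina10, an inhibitor of activated F10, fell by 2.04 (SE 0.09), Tfpi, which blocks tissue factor with F7, by 2.01 (SE 0.10), and Procr, the receptor of protein C, by 0.99 (SE 0.10). Serpine2 stood at -0.24 (SE 0.09) and Thbd, the thrombin receptor that turns on protein C, at 0.07 (SE 0.10), and neither passed. All 8 genes of vitamin K-dependent carboxylation and its other substrates were tested, of which 6 fell and 0 rose (median -0.60). Vkorc1, which recycles vitamin K, fell by 1.45 (SE 0.08), Ggcx, the carboxylase, by 1.06 (SE 0.08), and Prrg2, a membrane Gla protein, by 1.42 (SE 0.11). Vkorc1l1 and Prrg3 stood at -0.06 and -0.04 and did not pass.

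Of 13 genes that act with plasminogen, 10 were tested, of which 6 fell and 2 rose (median -0.57). Plau, which rose, cleared the background in heterozygous cultures on 2 of 3 arrays, and with both channels required 6 of 9 fell and 1 rose. With median centring without loess 2 of the 10 fell and 3 rose (median -0.16), where 15.2% of all genes were called lower and 43.1% higher. Serpinf2, the plasma inhibitor of plasmin, fell by 2.47 (SE 0.11). Plat, a plasminogen activator, fell by 0.66 (SE 0.08). Cpb2 at -0.28 (SE 0.19) and S100a10 at 0.11 (SE 0.10) did not pass. Of 3 genes tested from the thrombin receptor family, not all of them receptors of thrombin itself, F2rl3, which platelets carry, rose by 0.81 (SE 0.09). F2r at -0.21 and F2rl1 at 0.18 did not pass.

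The markers of visceral endoderm moved with the genes that fell. All 16 were tested and 16 fell (median -2.36), with Cubn, Rbp4 and Amn at -4.25, -3.68 and -3.14. Their summed signal lay between 30779 and 40007 (linear units) in null and between 212240 and 235386 in heterozygous cultures. Of 14 endoderm transcription factors tested, 13 fell and 1 rose (median -1.53). Onecut1 and Prox1 among them cleared the background in null cultures on 0 and 1 of 3 arrays and were tested through the heterozygous channel, and with both channels required 11 of 12 fell. Foxa1, Hnf4a and Foxa3 stood at -2.97, -2.87 and -1.92. So 7 of the 10 coagulation genes (6 of 9 with both channels required) fell along with the endoderm markers, while F5, F10 and F7 did not. F7 and F5 were dim in heterozygous cultures too, with mean log2 signals of 6.52 and 6.66 against 9.09 for F10. They had little signal to lose, so a fall of F7 or F5 could hardly be measured. Other liver plasma proteins were mixed: 6 of 11 tested fell and 2 rose (median -0.26, and -0.99 with processed signals), with Vtn, Hpx and Ambp at -2.45, -2.39 and -2.21, while Gc and Itih3 at 0.10 and -0.10 did not pass. Alb, the main plasma protein of the liver, was too dim to test, as were 7 of 12 hepatocyte enzymes. Of the other 5, 3 fell and 0 rose (median -0.32), Ass1 at -0.90, Tdo2 at -0.81 and Pck1, which was not well above background in any null culture, with Arg1 at -0.30 and Tat at 0.07 not passing. With both channels required Pck1 was not tested, and 3 of 4 fell, Arg1 among them.

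Markers of cells that could carry F5 or F10 were set beside these genes. Megakaryocytes store F5 in platelets. Of 12 megakaryocyte and platelet markers, 11 rose and 1 fell (median 1.56), Pf4, Treml1 and Gp9 by 3.92, 2.79 and 2.27, and their summed signal was 10639 to 18261 in null and 3724 to 4132 in heterozygous cultures. Ppbp and Gp6 cleared the background on 0 of 3 arrays in heterozygous cultures and were tested through the null channel only. With both channels required 9 of 10 rose and 1 fell, against 29.8% and 30.9% of all genes. Of 6 macrophage markers tested, 1 rose and 2 fell (median -0.18), near the 30.1% of all genes called lower. With processed signals and with no offset 4 of the 6 fell (medians -0.63 and -0.37). Mrc1 rose by 0.78, Csf1r and Cd68 fell by 1.95 and 1.06, and Adgre1 at -0.18 and Cd14 at -0.17 did not pass. Their summed signal was 4815 to 7748 in null and 8241 to 10573 in heterozygous cultures, and Lyz2, Ptprc and Fcgr1 were too dim to test. The part of any of these cell types in the changes of the coagulation genes was not tested.

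**Figure D4:**
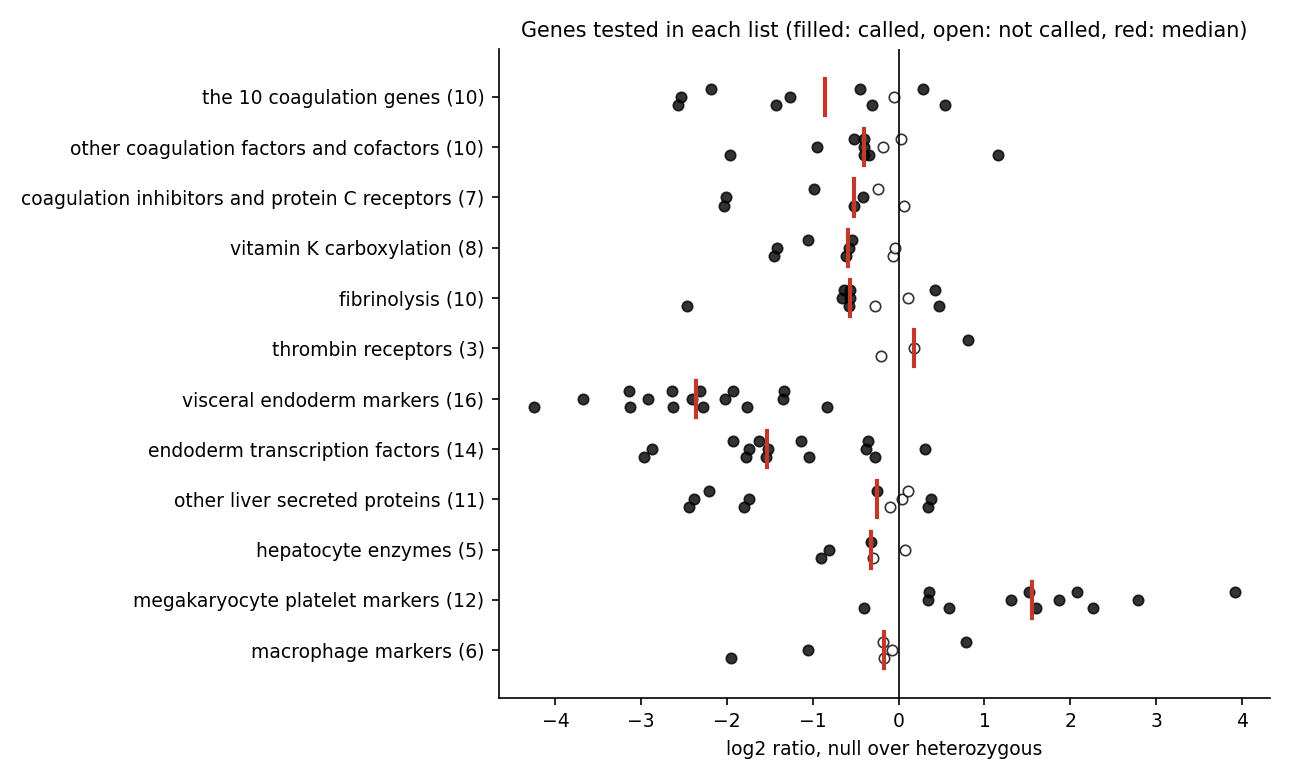
Log2 ratio of null over heterozygous (horizontal axis) for each tested gene of 12 lists (vertical axis, number tested in brackets), with filled points for genes that passed limma, open points for those that did not and a red line at the median. The medians run from -2.36 for visceral endoderm markers to 1.56 for megakaryocyte and platelet markers, with the 10 coagulation genes at -0.86.

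The arrays were also processed in 13 other ways, not counting replicate 3 as labelled. By adjusted p under 0.05, F2, Fgb, Proc and Plg were called lower in all 13, Fgg in 12, Serpinc1 in 11 and Fga in 7 of the 12 that tested it, while F10 was called higher in 11 and F5 in 8. F7 was called in 0 of 13. F2 ranged from -3.11 to -2.29, Fgb from -2.69 to -2.16, Proc from -2.53 to -1.85 and F10 from 0.44 to 0.86. Measured from the median of all genes under median centring without loess, F10 stood at 0.63 and F5 at 0.13. The order of the genes was not the same in all settings: with processed signals Plg, at -2.88, stood below Fgb, at -2.67.

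**Figure D5:**
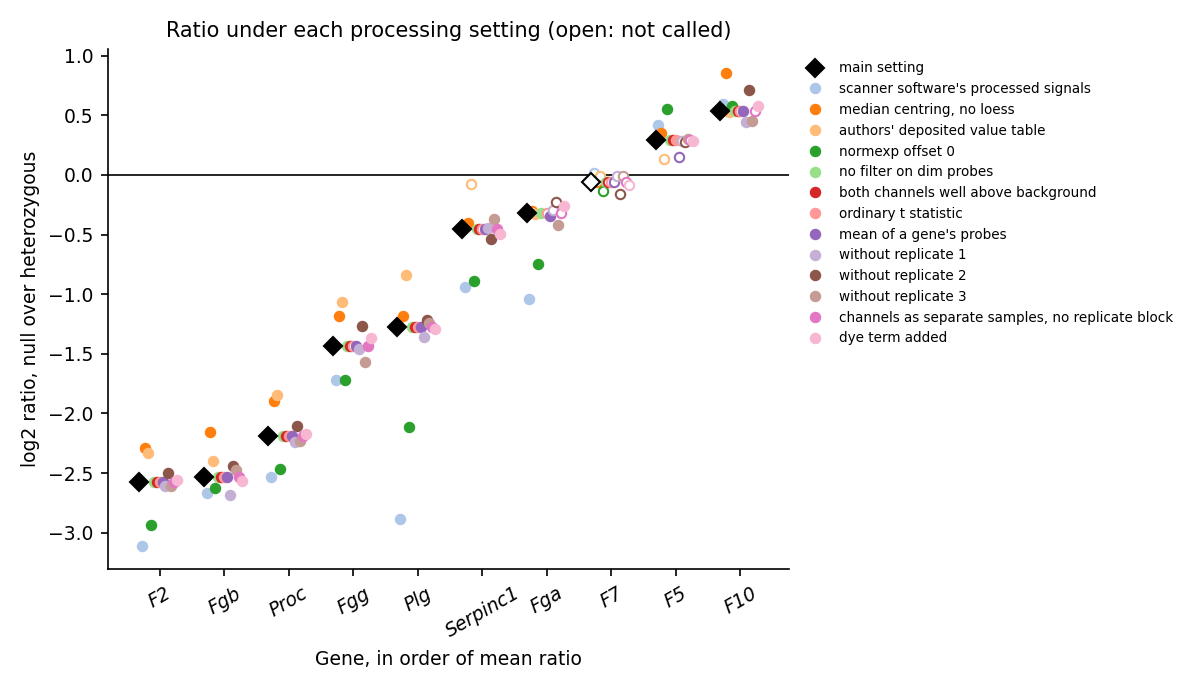
Log2 ratio of null over heterozygous (vertical axis) of each coagulation gene under the main setting (diamond) and 13 others (coloured points), open where limma or the test named did not call it. The points of F2, Fgb and Proc stay below -1.8, Plg spreads from -2.88 to -0.84, and those of Fgg, Serpinc1, Fga, F7, F5 and F10 include open points.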

How the data were processed

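Spot intensity values of both dyes, with local backgrounds and flags, were deposited as scanner output. Per the file headers the software was Feature Extraction 11.5.1.1, whereas 8.5.1.1 stands in the submitters' processing notes. The authors' deposited value table was read as log2 ratios of the dyes; no label states its scale, centring or direction, and its normalization stays unknown. That reading was taken because its slopes against the scanner's log2 ratios were 0.946, 0.953 and -0.947 for replicates 1 to 3 over spots with a mean log2 intensity above 11; its column medians were -0.10, -0.11 and 0.07. The 3 arrays came from 1 slide and 1 scan, which served as no block.

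With limma 3.58.1 in R 4.3.3, median signals were background-corrected by normexp (offset 50), which pulls ratios of dim spots toward 0, and put through within-array loess, in which control spots and outliers had weight 0. Signals of each genotype were taken after a further Aquantile step between arrays. Replicate 3 was turned, leaving 2 arrays of one dye orientation against 1. Probes well above background in the null channel or in the heterozygous channel on all 3 arrays were kept (24574), lmFit and eBayes set each ratio against 0, and p-values were adjusted by Benjamini-Hochberg over these probes. A gene was given its brightest probe. The SE is the moderated one of eBayes. The procedure was tested on simulated ratios. Probe accessions were named through RefSeq's genes of GRCm38.p6, with 28025 probes (71.1%) matched; the array design is on mm9 per the file headers, so that table gave names and gene order only. The coagulation genes and all lists were chosen with earlier results of these data known. Named from each list were the 3 called genes with the largest change and up to 2 not called, and 3 neighbours on each side of the fibrinogen and F7 genes; further names stand only for a count or a measurement limit. A few items that this rule or the motif search covered are not reported here. The motif AGGTCA was added after the promoters had been seen. Alternatives were other background, centring, filter, variance, probe, replicate and pairing choices and, added after the data were seen, a dye term.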

Additional observations from a re-analysis of the deposited data

How the results depend on the processing

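With replicate 3 as labelled, limma called 0 genes lower and 0 higher of the 10, and the log2 ratios were -0.90 (F2), -0.76 (Fgb), -0.78 (Proc), -0.66 (Fgg), -0.38 (Plg), -0.040 (Serpinc1), -0.25 (Fga), 0.12 (F5) and 0.071 (F10), which follows from 1 array of opposite sign. With the ordinary t statistic 4 were called lower and 1 higher, F10 (0.54), Fga (-0.32), Fgg (-1.43) and Serpinc1 (-0.45) losing their call at adjusted p of 0.154, 0.177, 0.057 and 0.098. Calls were fewer over all genes too, at 10.3% lower and 9.91% higher. With the channels unpaired as separate samples and no replicate block, 0 were called higher, and F5 (0.29, adjusted p = 0.111 by limma), F10 (0.54) and Fga (-0.32, adjusted p = 0.052 by limma) lost theirs. Of all genes, 20.8% were then called lower and 20.3% higher. In the authors' deposited values F10 alone was called higher (1 gene), with F5 at 0.13 and Serpinc1 at -0.078 not called, and with the mean of a gene's probes F10 alone was too (1 gene), F5 at 0.15 not being called. Over all genes, 19.7% were called higher and 21.4% lower in the authors' values, and 30% and 30.4% with the mean of probes. Median centring without loess left Fga at -0.30 (adjusted p = 0.066 by limma); over all genes it gave 8543 higher and 3008 lower, against 5980 and 5967. Without any replicate in turn, F5 ranged from 0.28 to 0.31, Fga from -0.42 to -0.23 and the number called higher from 1 to 2. The share of all genes called higher ranged from 25.1% to 29.6%. Fga was not tested where both channels had to be above background. Of 139 comparisons of a gene's ratio with another setting 113 kept direction and side of the threshold and 24 lost the call. The other 2 turned the sign of F7, which was not called in any setting: 0.020 with processed signals and 0.043 with replicate 3 as labelled. The cause of these changes was not tested. Settings that changed only the filter, the test or the pairing left each ratio as it was, so its direction could not change there. Signal over background limits what can be said of F7, Fga, F5 and Serpinc1, and of the size of the fall of Plg.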

Other observations

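Over the 3 arrays, the median profile of the 10 coagulation genes was -0.78, -0.94 and -0.89. Among 14877 other named genes tested, those with the smallest Euclidean distance from it were Gramd1c (0.021), Gm13889 (0.051), Slc39a8 (0.060), Prss23 (0.061) and Dyrk2 (0.065). The 3 values per gene describe little more than the size of its ratio.

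Endothelial markers, the other cell class that borders on clotting, rose for 9 and fell for 1 of 10 tested (median 0.64), with Cldn5, Cdh5 and Kdr at 1.36, 1.23 and 1.19. Thbd and Procr, receptors of the protein C pathway that endothelium carries, did not rise with them: Thbd stood at 0.07 and Procr fell by 0.99. Of 11 parietal endoderm markers, 9 fell and 0 rose (median -1.58), led by Srgn at -4.98, Lama1 at -2.56 and Col4a1 at -1.76, while Thbd and Fst at 0.07 and 0.04 did not pass. Fibroblast and feeder markers rose for 6 and fell for 1 of 10 (median 0.47), Col1a2, Lum and Dcn by 1.59, 1.17 and 1.05, with Pdgfrb at 0.21 and Col1a1 at -0.19 not passing. Col1a1 had no value on replicate 1, and its other values were -0.56 and 0.18. Vim, which did not pass, had none on replicate 1 either, and Postn, counted as risen, had none on replicate 2. Cardiomyocyte markers fell for 9 of 9 (median -2.73), with Myh6, Myh7 and Myl4 at -5.31, -5.11 and -4.77. Tnni3 cleared the background in null cultures on 2 of 3 arrays, and with both channels required 8 of 8 fell (median -3.42). Tnnt2, whose ratio is the median of the 9, had no value on replicate 1. Each of these counts stands against 30.2% of all genes called higher and 30.1% called lower.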
